A study of Mus musculus with 4 samples.

Results

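The genes described here are a fixed list of 32 molecular chaperones, chaperonin subunits and endoplasmic reticulum (ER) folding and stress genes, together with 3 features annotated on the strand opposite Hsp90b1, Tcp1 and Sec61a1. The rule for the 35 members names them and uses no threshold on their values, and they were found by gene symbol among 50600 gene identifiers. They were chosen with earlier results of these data known. The files give fragment counts for mouse Th2 cells, helper T cells known for secreting interleukins 4, 5 and 13, in 4 biological replicates. The labels state primary cells of strain C57BL/6NJ of unknown age, with no allele or agent named, and the file headers give 72 h and a sort. Each library has its own biosample, and all name 1 shared donor. All libraries form 1 group with no other condition, so genes are compared within a library, and libraries with each other.

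Replicates 1 to 4 held 1780682, 1857433, 1446040 and 1274431 counts. A count of 0 allowed a level of up to 1.62 to 2.35 counts per 1000000 (CPM), taking 3 counts as the limit. The share of the 35 members was 2.27% of the counts (95% Wilson interval 2.25 to 2.29) in replicate 1 and 2.03% (2.01 to 2.05) in replicate 2. It was 2.12% (2.10 to 2.15) in replicate 3 and 2.49% (2.46 to 2.51) in replicate 4. Most of this share was that of the 3 opposite features, with 29076, 32399, 26456 and 21743 counts in replicates 1 to 4. The 32 listed genes held 11336, 5334, 4262 and 9943 counts. Fragments were counted only on 1 strand, with the counting program's strand option set to 1 in all 4 headers. The 42411 genes with no exon opposite an exon of another gene held 16.4%, 8.54%, 9.14% and 20.1% of the counts in replicates 1 to 4, so most counts lay in the 8189 genes that have such an exon. The sources used here do not say whether the strand option matches the strand that the library kit marks, so a level below is a level on the counted strand and is not read as an amount of mRNA. In bulk RNA, fewer cells of a type and less RNA per cell cannot be told apart.

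Chaperones bind unfolded proteins and help them to reach or keep their folded form. In the cytosol, HSP70 proteins work with J proteins that bring clients and stimulate their ATPase, HSP90 finishes the folding of kinases and receptors, and the ring-shaped chaperonin TRiC (also called CCT) encloses actin and tubulin. In the ER, BiP, GRP94, the lectins calnexin and calreticulin and the protein disulfide isomerases fold secreted and membrane proteins, a load that grows when a T cell turns to cytokine secretion. When unfolded proteins build up there, the sensors IRE1, PERK and ATF6 raise the factors XBP1, ATF4, CHOP and cleaved ATF6, which act on folding and degradation genes.

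Levels are given as transcripts per 1000000 (TPM), computed from each gene's count and total exon length, so that genes of unlike length can be set side by side. Hsp90ab1 was the highest of the 32 listed genes at 613 ± 373 TPM (SD, n = 4), followed by Tcp1 at 235 ± 9.78 TPM and Ddit3 at 156 ± 27.6 TPM. Ern1 was the lowest at 0.380 ± 0.345 TPM. In the order of all 35 means, 31 of 34 neighbouring pairs overlapped within 1 SD, and those that did not were 1810014B01Rik and Acat3, Acat3 and Hsp90ab1, and Tcp1 and Ddit3. The 3 opposite features stood apart from all of these, at 5385 ± 438 TPM for Gm44170, 5109 ± 284 TPM for 1810014B01Rik and 3888 ± 239 TPM for Acat3.

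**Figure D1:**
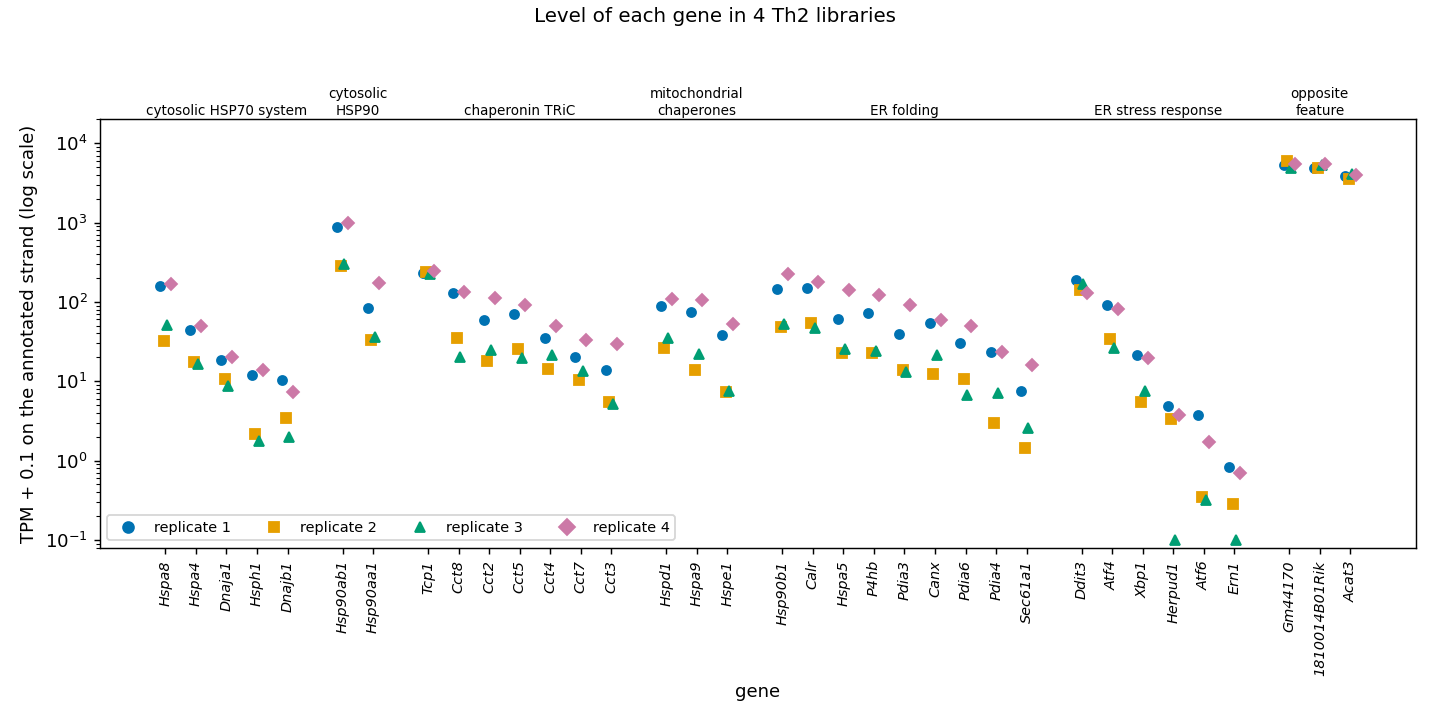
Level of each of the 35 members in the 4 Th2 libraries, as TPM + 0.1 on a log axis, grouped by role and ordered by mean within a role, with 1 symbol for each replicate. Replicates 1 and 4 sit above replicates 2 and 3 for nearly all listed genes, while Tcp1, Ddit3 and the opposite features lie close together.

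The plot of levels by gene shows the 4 libraries splitting the same way in role after role. Replicates 1 and 4 lay both above replicates 2 and 3 in CPM for 30 of the 32 listed genes and 0 of the 3 opposite features, against 46.2% of the 7752 genes that averaged 10 or more counts. The exceptions among listed genes were Tcp1 and Ddit3. This ordering held for 21 of 21 listed genes with no exon opposite another gene, against 67.8% of 3827 such genes among the 7752. It held for 9 of 11 listed genes with such an exon and 0 of the 3 opposite features, against 25.1% of 3925 such genes. Ern1 and Herpud1 were counted among the 30 although they averaged under 10 counts. With TMM-scaled library sizes, which set the bulk of the genes level between libraries, the count was 29 of 32, against 36.7% of those 7752 genes. On that scale it was 20 of 21 listed genes with no opposite exon, against 57.0% of such genes. It was 9 of 11 with one, against 17.0%. This ordering of libraries was chosen after the values were seen, so it is given with no test.

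Among the cytosolic HSP70 genes, Hspa8, the constitutive HSP70 of the cytosol (chromosome 9, 40800984 to 40810087, mm10), had the most counts. Its counts were 789, 184, 219 and 580 in replicates 1 to 4, which is 157, 32.4, 50.6 and 166 TPM. Replicates 1 and 4 were close to each other, and both lay far above replicates 2 and 3. Hspa4, an HSP110-type nucleotide exchange factor of HSP70, had 288, 126, 92 and 224 counts and 32.1 ± 17.7 TPM. Hsph1, the other exchange factor on the list, had 100, 20, 12 and 81 counts and 7.31 ± 6.34 TPM. Both had their low libraries in replicates 2 and 3, as Hspa8 did, and Hsph1 had the wider spread relative to its level.

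The J proteins of this role were lower. Dnaja1 had 184, 120, 74 and 141 counts and 14.4 ± 5.69 TPM, and Dnajb1, the main J protein induced by heat shock, had 38, 14, 6 and 19 counts and 5.65 ± 3.77 TPM. The coefficient of variation (CV, the SD as a percent of the mean) of Dnaja1 was 39.7% in TPM, the lowest of the listed genes after Tcp1 and Ddit3, and with TMM-scaled CPM it was the lowest of the listed genes, under the 23.1% of Tcp1. Dnaja1 shares 608 bp of exon with Smu1, a splicing factor gene on the other strand, which had only 19, 9, 12 and 35 counts, and 249 bp with the lincRNA Gm6297, which had 6, 3, 11 and 0.

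Cytosolic HSP90 was represented by both of its genes. Hsp90ab1, the constitutive form (chromosome 17, 45567775 to 45573271, minus strand), had 3059, 1119, 919 and 2417 counts, or 872, 283, 304 and 994 TPM. Hsp90aa1, the more inducible form, had 383, 171, 144 and 550 counts, or 83.3, 33.0, 36.4 and 173 TPM. Neither has an exon opposite another gene. The ratio of Hsp90ab1 to Hsp90aa1 in TPM was 10.5, 8.58, 8.37 and 5.76 in replicates 1 to 4, so Hsp90ab1 was the higher in every library while the ratio was lowest in replicate 4. Without replicate 4 the mean of Hsp90aa1 was 50.9 TPM in place of 81.3.

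Of the subunits of TRiC, 7 are on the list, and Cct6a is given with the further pathway genes. Tcp1, subunit 1 (chromosome 17, 12915701 to 12925067, plus strand), had 1364, 1586, 1127 and 1000 counts, or 232, 239, 222 and 245 TPM, with a CV of 4.17%. The other 6 subunits lay far lower and varied more. Cct8 followed at 79.8 ± 60.9 TPM with 468, 141, 62 and 338 counts, and the lowest was Cct3 at 13.4 ± 11.4 TPM with 103, 45, 32 and 152 counts. Cct2 (53.2 ± 42.4 TPM), Cct5 (51.5 ± 34.6 TPM), Cct4 (30.0 ± 15.6 TPM) and Cct7 (19.2 ± 10.2 TPM) fell between them, and their order did not exceed their SDs. Their levels were unequal in every library: the ratio of Tcp1 to Cct8 was 1.79, 6.91, 11.2 and 1.82 in replicates 1 to 4. Without replicate 4 the means of Cct2 and Cct3 were 33.9 and 8.05 TPM.

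The mitochondrial chaperones are the matrix HSP70 Hspa9 and the chaperonin pair HSP60 (Hspd1) and HSP10 (Hspe1). Hspd1 had 274, 90, 93 and 233 counts, or 88.6, 25.8, 35.0 and 109 TPM. Hspe1 had 65, 14, 11 and 62 counts, or 37.7, 7.20, 7.41 and 51.9 TPM. Hspa9 had 344, 72, 86 and 334 counts and 53.8 ± 43.4 TPM. All 3 were higher in replicates 1 and 4, with no overlap with replicates 2 and 3, an order that 46.2% of the 7752 genes tested had in CPM.

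Hspd1 and Hspe1 are read in opposite directions from adjoining starts on chromosome 1 and share 112 bp of exon at their 5′ ends. The ratio of Hspd1 to Hspe1 in TPM was 2.35, 3.59, 4.72 and 2.10. Promoter bases are shown for this pair, read on the strand of each gene. The same 38 bp lie before the start of Hspe1 and before the inner of 2 RefSeq starts of Hspd1. Heat shock element units (GAA or TTC, spaced by 2 bases) are in capitals. The promoter at the outer start of Hspd1 held none of the motifs searched. They were taken from RefSeq on GRCm38.p6, at chr1:55088049-55088086, minus strand for Hspd1 and plus strand for Hspe1.
Hspd1: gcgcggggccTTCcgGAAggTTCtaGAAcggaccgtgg
Hspe1: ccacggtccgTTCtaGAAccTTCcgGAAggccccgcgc

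A run of 3 such units in alternating orientation occurred in 0.603% of 32851 RefSeq promoters (250 bp before to 50 bp after a start, both strands searched). Of the 25 members with a promoter in that table, 3 held it, which were Hspd1, Hspe1 and Hsph1. These 25 members have 32 promoters there, of which 4 held the run, and Hspd1 and Hspe1 hold it in the same bases. The shorter GAANNTTC, which overlaps the run, occurred in 7.86% of promoters and in 6 of the members' 32. They belong to 5 members, those 3 with Cct2 and Dnaja1. The cyclic AMP element TGACGTCA occurred in 1.79% of promoters and in 0 members. A match is a match of letters, not a site.

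ER folding genes followed the same order of libraries. Hspa5, encoding BiP, the HSP70 of the ER (chromosome 2, 34771970 to 34777547, plus strand), had 302, 127, 109 and 487 counts, or 61.0, 22.8, 25.6 and 142 TPM. Hsp90b1, encoding GRP94, the HSP90 of the ER, had 685, 253, 215 and 736 counts, or 145, 47.6, 52.9 and 225 TPM. Replicate 4 was the highest and replicates 2 and 3 the lowest for both, and the ratio of Hsp90b1 to Hspa5 in TPM was 2.38, 2.09, 2.07 and 1.59. Without replicate 4 the mean of Hspa5 was 36.5 TPM in place of 62.9.

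The lectin chaperones bind newly made glycoproteins. Calr (calreticulin) had 506, 205, 134 and 417 counts and 107 ± 67.1 TPM, and Canx (calnexin) had 294, 75, 100 and 224 counts and 36.4 ± 23.2 TPM. The ratio of Calr to Canx was 2.80, 4.45, 2.18 and 3.03, so Calr had the higher level on the counted strand in every library.

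Among the disulfide isomerases, P4hb, the founding member, had 244, 85, 68 and 287 counts and 60.7 ± 48.1 TPM. Pdia3, the partner of calnexin and calreticulin, had 145, 57, 41 and 230 counts and 39.1 ± 36.3 TPM. Pdia6 and Pdia4 were lower, at 24.1 ± 19.6 and 14.1 ± 10.8 TPM. All 4 isomerases were lowest in replicates 2 and 3. Without replicate 4 the means of P4hb, Pdia3 and Pdia6 were 39.7, 22.1 and 15.8 TPM.

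Sec61a1, the channel subunit of the translocon through which proteins enter the ER, was the lowest of this role. It had 58, 12, 17 and 87 counts, or 7.36, 1.35, 2.51 and 15.9 TPM, and a CV of 97.7%. Its mean without replicate 4 was 3.74 TPM in place of 6.79.

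Promoter bases are shown for the ER folding genes that hold the ER stress element. Pdia3, Pdia4 and P4hb, whose promoters do not hold it, also had their low libraries in replicates 2 and 3. In CPM that order held for 67.8% of tested genes with no opposite exon and 25.1% of those with one. Any relation of the element to the order of libraries was not tested. The element searched was CCAAT, 9 bases, CCACG on either strand, and its 2 ends are in capitals, written as CGTGG and ATTGG where it lies on the other strand. The bases are RefSeq's on GRCm38.p6 and read on the strand of the gene. They lie at chr2:34772015-34772053 (plus strand) for Hspa5, chr10:86705523-86705666 (minus) for Hsp90b1, chr8:84847065-84847103 (minus) for Calr, chr11:50325790-50325828 (minus) for Canx and chr12:17266481-17266519 (plus) for Pdia6.
Hspa5: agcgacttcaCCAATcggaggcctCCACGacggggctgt
Hsp90b1: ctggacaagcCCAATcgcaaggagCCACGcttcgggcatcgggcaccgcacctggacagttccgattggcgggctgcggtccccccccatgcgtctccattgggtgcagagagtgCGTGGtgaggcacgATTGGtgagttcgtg
Calr: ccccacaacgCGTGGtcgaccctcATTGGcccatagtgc
Canx: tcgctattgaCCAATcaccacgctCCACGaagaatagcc
Pdia6: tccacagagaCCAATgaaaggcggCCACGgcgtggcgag

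The element occurred in 39 of the 32851 promoters (0.119%) and in 5 of the 32 promoters of members. These belong to 5 members, all of them among the 8 ER folding genes with a promoter in the table. Hsp90b1 held it 2 times and the others once. The related form ATTGG, 1 base, CCACG occurred in 0.0365% of promoters and, among members, only in that of Herpud1. The genes of BiP, GRP94 and calreticulin are textbook carriers of such elements, and the matches bear on no level measured here.

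The ER stress genes ran from near the limit of detection to high levels. Ddit3, encoding the transcription factor CHOP (chromosome 10, 127290774 to 127296288, plus strand), had 379, 315, 290 and 178 counts, or 189, 139, 168 and 128 TPM, a CV of 17.7%. Its highest and lowest libraries were replicates 1 and 4, which were the pair of high libraries for the other genes of this role. With TMM-scaled sizes replicate 4 was still its lowest library, but replicate 3 was its highest. Atf4, which lies downstream of PERK and acts on Ddit3, had 183, 78, 45 and 112 counts and 57.8 ± 32.4 TPM. Xbp1, whose mRNA is spliced by IRE1, had 80, 23, 24 and 51 counts and 13.3 ± 8.07 TPM; gene counts do not separate its spliced and unspliced forms.

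The sensors and the ER degradation gene were low. Atf6 had 40, 3, 2 and 12 counts and 1.44 ± 1.64 TPM, with the widest CV of the 32 listed genes, 114%. Its mean without replicate 1 was 0.688 TPM. Ern1, encoding IRE1, had 7, 2, 0 and 4 counts, and Herpud1 had 13, 10, 0 and 7. Both were under the mean count of 10 used for testing, and the 0 in replicate 3 allows up to 2.07 CPM.

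The 3 opposite features lie across exons of listed genes, in transcripts read the other way. 1810014B01Rik (chromosome 10, 86685525 to 86694806, plus strand), annotated as a transcribed unprocessed pseudogene, shares 415 bp in 3 blocks with exons of Hsp90b1 (86690209 to 86705509, minus strand). All 415 bp are coding sequence of Hsp90b1. Acat3, a protein-coding acetyl-CoA acetyltransferase gene (chromosome 17, 12923833 to 12940402, minus strand), shares 571 bp with the last exon of Tcp1, of which 214 bp are coding. Gm44170, annotated as antisense (chromosome 6, 88503605 to 88504277, plus strand), has all of its 549 bp of exon within the last exon of Sec61a1 (88503579 to 88518905, minus strand), in noncoding sequence 26 bp from the 3′ end.

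**Figure D2:**
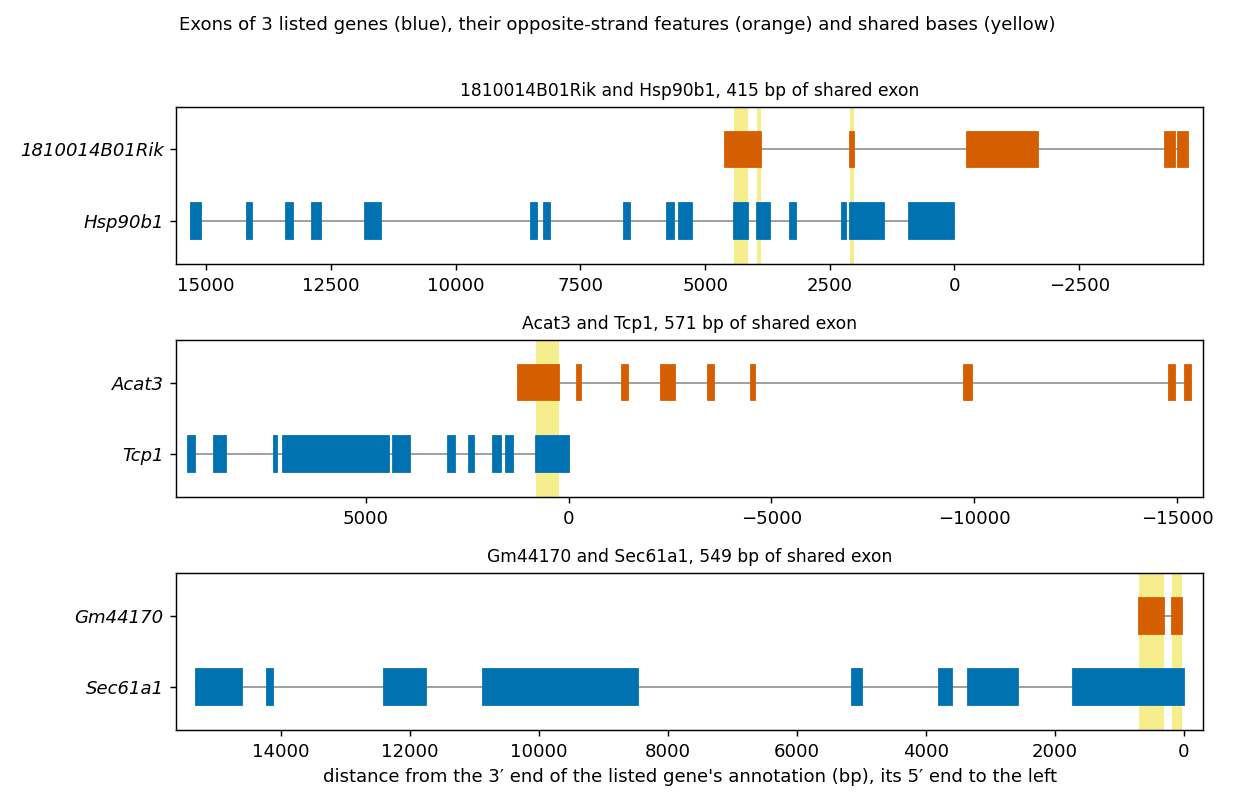
Exons of the 3 opposite features (orange, upper line) and of their listed genes (blue, lower line) by distance in bp from the 3′ end of the listed gene, with shared bases in yellow. The shared bases number 415 for Hsp90b1, 571 for Tcp1 and 549 for Sec61a1, and lie in the 3′ part of each gene.

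The map of the loci shows that all 3 overlaps fall toward the 3′ end of the listed gene. At each locus, the feature on the other strand held more counts than the gene in every library. 1810014B01Rik had 15131, 17043, 14016 and 11700 counts, against 685, 253, 215 and 736 for Hsp90b1. Acat3 had 10560, 11050, 9737 and 7622 counts, against 1364, 1586, 1127 and 1000 for Tcp1. Gm44170 had 3385, 4306, 2703 and 2421 counts, against 58, 12, 17 and 87 for Sec61a1. No library of a listed gene reached any library of its opposite feature.

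Per kb of exon, 1810014B01Rik exceeded Hsp90b1 by 5.07, 6.68, 6.63 and 4.59 on the log2 scale in replicates 1 to 4 (mean 5.74 ± 1.07, SD, n = 4), and the exact two-sided sign-flip permutation test gave p = 0.125. Acat3 exceeded Tcp1 by 4.05, 3.90, 4.21 and 4.03 (mean 4.05 ± 0.13), and Gm44170 exceeded Sec61a1 by 9.47, 12.04, 10.89 and 8.41 (mean 10.20 ± 1.59). Each difference was positive in 4 of 4 libraries, and each exact permutation p was 0.125, the smallest that 4 libraries can give. Of all partners of listed genes, these 3 had the highest mean counts per kb, and the members were chosen with earlier results known. The direction was therefore not open, and the p is no support for it. As folds, the means correspond to 53.5 for 1810014B01Rik over Hsp90b1, 16.6 for Acat3 over Tcp1 and 1178 for Gm44170 over Sec61a1. Without division by exon length they were 35.2, 7.72 and 96.1. The mean for Gm44170 over Sec61a1 was 9.59 on the log2 scale without replicate 2 and 10.80 without replicate 4. Acat3 and Tcp1 kept their ratio across libraries, whereas the other pairs had a wider gap in replicates 2 and 3 than in replicates 1 and 4.

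**Figure D3:**
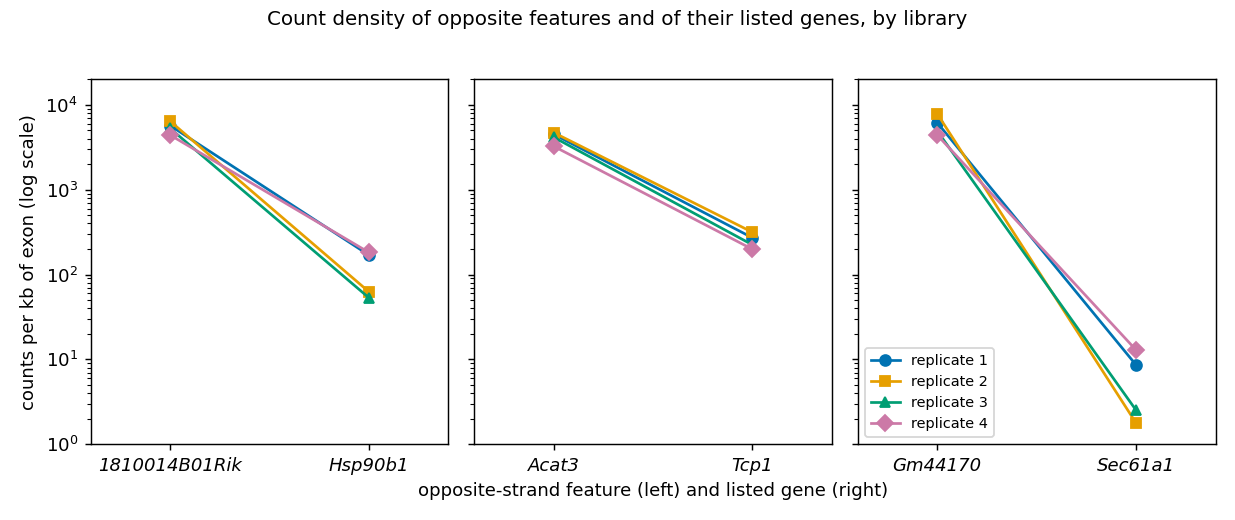
Counts per kb of exon (log axis) of each opposite feature (left) and its listed gene (right), joined by a line within a replicate. The lines for Acat3 and Tcp1 are nearly parallel, while the points of Hsp90b1 and Sec61a1 spread and those of 1810014B01Rik and Gm44170 stay together.

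The plot of count density shows where the unequal gaps arise: the opposite features stayed together while 2 of the 3 genes spread. In TPM the CVs were 5.55% for 1810014B01Rik, 6.16% for Acat3 and 8.13% for Gm44170, against 71.8%, 4.17% and 97.7% for Hsp90b1, Tcp1 and Sec61a1. With TMM-scaled CPM the CVs of the 3 features were 21.0%, 20.6% and 28.7% and that of Tcp1 was 23.1%, so their evenness holds for shares of a library and not on that scale.

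Including these 3, 11 of the 32 listed genes have an exon opposite another gene, against 3925 of the 7752 genes tested. They form 14 pairs, of which 10 share at least 100 bp, with the overlap of Hspd1 and Hspe1 counted from each gene. In 5 of the 14 pairs the opposite feature had more counts per kb than the listed gene. They include the 3 listed features, chosen with earlier results known. Hspd1 opposite Hspe1 is also among them, a pair that enters whichever of its genes is higher. The share over all opposite pairs of genes is not given here. Pradc1 shares 214 bp with Cct7 and had 105, 91, 63 and 69 counts, against 161, 92, 90 and 182 for Cct7. Usp16, a deubiquitinase gene, shares 192 bp with Cct8 and had 224, 96, 85 and 82 counts, against 468, 141, 62 and 338 for Cct8. Mrpl18, a mitochondrial ribosomal protein gene, shares 141 bp with Tcp1 and had 44, 19, 7 and 24 counts, far under Acat3 at the same gene. Mars, a methionyl-tRNA synthetase gene that shares 68 bp with Ddit3, had 168, 180, 119 and 137 counts, with a CV of 14.8% in TPM, near the 17.7% of Ddit3. The part of any of these overlaps in the counts of the listed genes was not tested.

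The deviation of each gene from its own mean over the 4 libraries, on the log2(CPM + 1) scale, was summarised by role. ER folding genes deviated by a median of 0.63, -0.97, -0.84 and 1.31 in replicates 1 to 4, and mitochondrial chaperones by 0.88, -1.17, -0.80 and 1.32. Cytosolic HSP90 deviated by 0.51, -0.85, -0.75 and 1.09, the TRiC subunits by 0.38, -0.69, -0.68 and 1.01 and the HSP70 system by 0.91, -0.63, -0.72 and 0.73. ER stress genes deviated by 0.89, -0.39, -1.12 and 0.63. The ER stress median was higher in replicate 1 than in replicate 4, as each of its 6 genes was. In the HSP70 role 4 of 5 genes were higher in replicate 4, although the median was not.

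The same split was seen outside the list. Over the 32 listed genes the median deviations were 0.69, -0.86, -0.80 and 0.93, against 0.23, -0.23, -0.20 and 0.35 over all 7752 genes. Among the 3827 of those genes with no opposite exon they were 0.54, -0.61, -0.62 and 0.90, and among the 3925 with one they were 0.01, 0.03, 0.04 and -0.03. The 21 listed genes with no opposite exon deviated by 0.79, -0.89, -0.84 and 0.89, and the 11 with one by 0.57, -0.69, -0.77 and 1.10. The opposite features deviated by -0.07, 0.01, 0.09 and -0.04, in the range of other genes with an opposite exon. Under TMM-scaled sizes the 32 listed genes kept their signs at 0.57, -0.56, -0.69 and 0.63, against 0.12, 0.06, -0.09 and 0.06 over all genes, while the opposite features read -0.19, 0.32, 0.20 and -0.34.

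**Figure D4:**
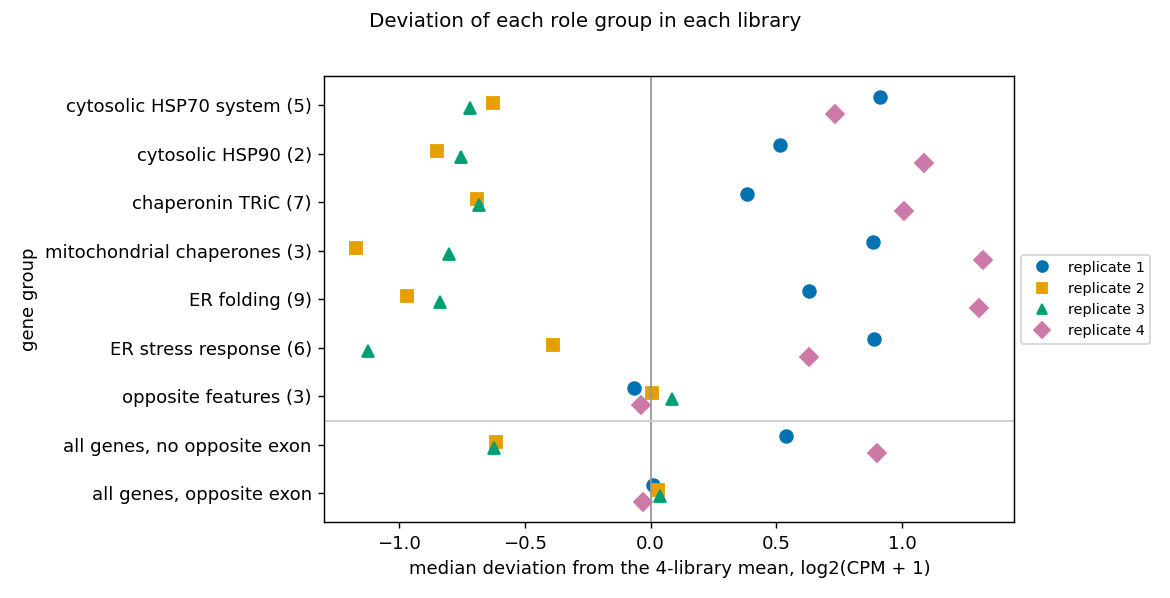
Median deviation from the 4-library mean, log2(CPM + 1), of each role group (number of genes in brackets) and, under the line, of all genes tested without and with an opposite exon, with 1 symbol for each replicate. The listed roles spread with replicates 2 and 3 on the low side and replicates 1 and 4 on the high side, as did the 3827 genes with no opposite exon, and the opposite features stay near 0.

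The plot of deviations by role puts the chaperone groups beside the background they were read against. The highest CPM fell in replicate 4 for 23 of the 35 members, against 43.3% of all genes tested, and in replicate 1 for 8, against 23.4%. All 6 ER stress genes were among those 8, with Dnajb1 and Pdia4. The lowest CPM fell in replicate 2 for 16 members, against 30.1% of genes, and in replicate 3 for 15, against 32.8%. Acat3, 1810014B01Rik and Tcp1 were lowest in replicate 1, and Ddit3 alone in replicate 4.

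The spread between libraries was larger than counting noise for all 33 members tested, by a chi-square test of the 4 counts against Poisson noise, adjusted by Benjamini-Hochberg over all genes. The share of all 7752 genes that did so was 88.4%, so the members' count is near what genes in general gave. The largest adjusted p among the 33 was 0.0013, for Dnajb1. The biological CV over all genes was 0.63 by edgeR.

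For no member did 1 library against the other 3 pass the test. In edgeR's quasi-likelihood test with Benjamini-Hochberg adjustment at 0.05, 0 members were called in each of the 4 comparisons, against 0%, 0.0129%, 0.0387% and 0% of genes in replicates 1 to 4. The comparisons share libraries, and the lone library is taken to vary like the other 3. At an unadjusted p under 0.05 the test counted 0, 3, 3 and 8 members and 33, 216, 726 and 683 genes in replicates 1 to 4, and DESeq2 called 0 members in each. The smallest adjusted p of a member in edgeR was 0.387, for Cct8 in replicate 3, with a log2 fold of -1.99.

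The calls changed when 1 library was left out. Replicate 4 against replicates 2 and 3, without replicate 1, gave 19 of 32 members (17 higher and 2 lower), against 14.6% of genes (497 higher and 567 lower). The 17 higher members included Hsp90aa1, Hsp90b1 and Hspa5, with log2 folds of 1.78, 1.63 and 2.02. The 2 lower members were 1810014B01Rik, at -0.43, and Acat3, at -0.48. Replicate 1 against replicates 2 and 3, without replicate 4, gave 7 of 33 members, against 3.27% of genes. The 6 higher were Calr, Hspa8, Hsp90b1, Cct8, Hsp90ab1 and Hspa9, and 1810014B01Rik was lower.

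From the other side, replicate 3 against replicates 1 and 4, without replicate 2, gave 13 of 33 members, all lower, against 9.23% of genes (90 higher and 653 lower). Cct8 was among them with a log2 fold of -2.29. Replicate 2 against replicates 1 and 4, without replicate 3, gave 12 of 34 members, all lower, against 4.88% of genes (140 higher and 260 lower). Hspa9, at -2.09, and Hspa8, at -1.73, were among them. The remaining 8 comparisons with a library left out called 0 members. In each comparison that called members, the spread comes from the 2 libraries that lie on the same side of the split seen above. The calls therefore restate that split. The comparisons share libraries and lie within 1 group, so they describe libraries and not conditions.

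**Figure D5:**
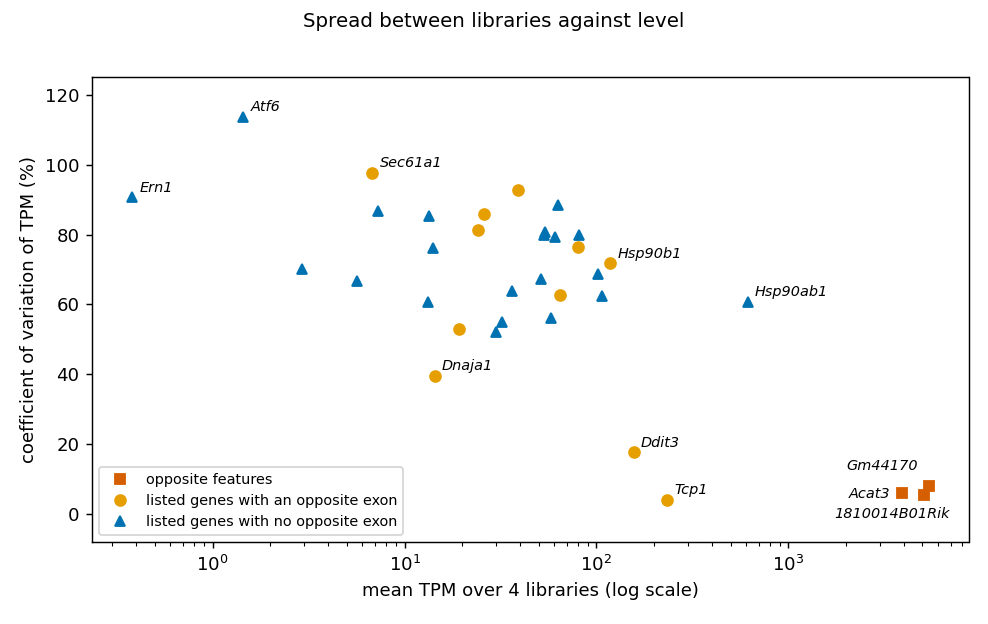
Coefficient of variation of TPM over the 4 libraries (percent) against mean TPM (log axis) for each of the 35 members, by whether the gene has an exon opposite another gene. Tcp1, Ddit3 and the 3 opposite features lie under 20%, and the other listed genes lie at 39.7% or above.

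The plot of spread against level shows a gap in TPM that was not seen with TMM-scaled CPM. The median CV of TPM was 70.9% over the 32 listed genes, against 53.7% over all genes tested. Of the genes tested, those with no opposite exon had a median CV of 72.9% and those with one 29.6%. With TMM-scaled CPM the median CV was 57.1% over the listed genes and 47.8% over all genes. On that scale Dnaja1, just under Tcp1, and Tcp1 (23.1%), Ddit3 (26.1%), Gm44170 (28.7%), Cct7 (29.7%) and Cct4 (30.5%) ran together.

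The further genes of these pathways, 162 in 9 lists, gave the surroundings of the members. Of these, 112 reached a mean count of 10, and 104 of the 112 varied beyond counting noise, near the 88.4% of all genes. The 70 tested genes with no opposite exon deviated by a median of 0.61, -0.80, -0.96 and 1.17 in replicates 1 to 4 with a median CV of 80.9%. The 42 with an opposite exon deviated by 0.34, -0.15, -0.27 and 0.29 with a median CV of 48.4%.

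The stress-induced HSP70 genes Hspa1a and Hspa1b were at or near 0, with 2, 2, 0 and 0 counts and 0, 0, 0 and 2 counts in replicates 1 to 4. No option for multiply mapped reads appears in the headers, so reads that fit more than 1 gene may be missing from these counts. The inducible members Dnajb1 and Hsp90aa1 had counts in every library, as given above. Only 2 of the 11 genes in the list of heat shock regulators and inducible HSP70 reached a mean count of 10. Hspa14 was its highest gene at 8.97 TPM, followed by the heat shock factor Hsf1 at 3.33 TPM (2.18 without replicate 1) and Hspa4l at 2.29 TPM (1.35 without replicate 4). In the J protein list 8 of 14 were tested and 7 varied, led by Dnajc8 at 46.0 TPM, Dnaja3 at 42.1 TPM and Dnajc7 at 34.0 TPM. In the cochaperone list 16 of 18 were tested and 15 varied. Stub1, the ubiquitin ligase CHIP, was highest at 297 ± 28.8 TPM, above Stip1, which bridges HSP70 and HSP90, at 71.3 ± 29.5 TPM, and Bag1 at 48.3 TPM. Stub1 has an exon opposite Jmjd8, and Stip1 and Bag1 have none.

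In the list of TRiC subunits, prefoldin and tubulin cofactors, 12 of 14 were tested and 11 varied. The tubulin cofactors Tbce, Tbcb and Tbca had 118, 87.5 and 37.9 TPM, and the TRiC subunit Cct6a had 31.7 ± 20.3 TPM, within the range of the listed subunits. In the mitochondrial list 7 of 10 were tested and all 7 varied. Dnajc19, of the import motor, had 191 ± 11.4 TPM and an exon opposite Fxr1, above the protease Lonp1 at 39.1 TPM and the exchange factor Grpel1 at 24.7 TPM.

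Of 27 further ER chaperones and oxidoreductases, 17 were tested and 16 varied. Erp29 (164 ± 9.32 TPM), Manf (79.8 ± 11.1 TPM) and Dnajc1 (78.1 ± 4.52 TPM) were the highest, and each has an exon opposite another gene. Of 20 translocon and signal peptide genes 16 were tested and 14 varied, with Spcs1, Ssr2 and Srp14 highest at 26.9, 25.9 and 21.0 TPM, where Srp14 had 10.4 TPM without replicate 4. Of 16 ER degradation genes 12 were tested and 11 varied, with Os9, Ubxn4 and Derl2 highest at 22.6, 14.5 and 12.2 TPM. Of 32 stress signalling genes and targets 22 were tested and 21 varied. There the haem-regulated kinase Eif2ak1 had 211 ± 12.9 TPM and an exon opposite Aimp2, Atf5 had 129 ± 35.0 TPM and Creb3 had 40.3 ± 1.34 TPM. Atf5 and Creb3 also have exons opposite other genes. So do Hspa1a, Dnaja3, Dnajc7, Tbce, Tbcb, Cct6a, Grpel1, Spcs1, Ssr2 and Derl2 among the genes named from these lists.

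The labelled cell type was checked against its markers. Summed over 7 T cell genes the counts were 1108, 827, 502 and 937 in replicates 1 to 4, and over 8 Th2 genes 681, 370, 276 and 679, with Il4 at 104, 110, 84 and 64 and Il13 at 150, 62, 40 and 208. Both sums were higher in replicates 1 and 4, as the chaperone genes were, and the part of this in their levels was not tested. In CPM, 6 of the 7 T cell genes and 6 of the 8 Th2 genes were highest in replicate 4. Not all followed: Cd247, which has an exon opposite Pou2f1, held 533, 577, 389 and 338 of the T cell counts. Ptgdr2, with an exon opposite Ccdc86, had 118, 88, 37 and 21 counts. Il4, which has no opposite exon, had 58.4, 59.2, 58.1 and 50.2 CPM. Cd3e and Il5, each with an opposite exon, also did not have both replicates 1 and 4 above replicates 2 and 3 in CPM. Plasma cells carry a large ER, and their 6 markers summed to 6 counts in each library, with Jchain and Mzb1 at 0. B cell markers summed to 50, 56, 21 and 3, led by Cd79a at 35, 41, 9 and 2 counts. CD8 and natural killer markers summed to 0, 2, 0 and 0, and granulocyte and mast cell markers to 0, 4, 0 and 0. Myeloid markers summed to 732, 838, 694 and 542, nearly all of it Csf1r, which has an exon opposite Hmgxb3. Cd68, which has no opposite exon, had 16, 11, 33 and 0 counts, and Lyz2 and Adgre1 had 0. Stromal and endothelial markers summed to 104, 79, 120 and 112, mostly Pecam1. None of the non-T cell sums was higher in both replicates 1 and 4 than in both replicates 2 and 3.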

How the data were processed

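RNA was measured in 4 Th2 libraries of 1 group, with replicate numbers taken from the labels. The assay is labelled total RNA-seq, but its linked protocol carries poly(A) in its name. The authors deposited raw fragment counts for each gene. Per the file headers, featureCounts v1.4.6-p4 counted fragments with both ends mapped over exons of GENCODE M13 on mm10, with strand option 1. No source used here gives the aligner's version, and no option for multiply mapped reads appears in the headers, so genes with near copies may be undercounted. An overlap on the same strand or a feature on the other strand can change what a gene's count holds.

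From the counts, CPM, TPM (over exon length) and log2(CPM + 1) were computed. Symbols came from GENCODE vM21 by identifier without version, which named 50376 of 50600. All 249 list entries matched 1 identifier. Exons were set against exons on the other strand, with at least 1 bp shared. Genes that averaged 10 or more counts entered the chi-square test and edgeR 4.0.16 (DESeq2 1.42.0 as alternative, R 4.3.3), with TMM and Benjamini-Hochberg adjustment at 0.05, and both tests were tried on simulated counts. Ratios within a library used (count + 0.5) per kb and an exact sign-flip permutation test. Intervals and count limits cover counting error only. Promoter sequences are RefSeq's. Python 3.11.15 was used.

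Named genes were all members, the opposite genes sharing at least 100 bp, the 3 highest genes of each pathway list and the cell markers. Cct6a, Hspa1a, Hspa1b and Mars were named after their values were seen. The members and lists were chosen with earlier results of these data known. Alternatives were median-of-ratios factors, all genes with any count, another tool, pseudocount, length scaling or unit, other member sets and leaving out each replicate.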

Additional observations from a re-analysis of the deposited data

Results flagged for a closer look

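The median TPM of the 3 opposite features in replicate 4 was 5439, against 4875, 4870 and 4889 in replicates 1 to 3, so replicate 4 stood apart from 3 values that lie close together. In replicates 3 and 4 the median belonged to Gm44170, and in replicates 1 and 2 to 1810014B01Rik. It was 1 of 45 sets of 4 library values examined, and chance marks about 1 in 20. The median is taken over only 3 features, and its cause was not tested.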

How the results depend on the processing

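Of the settings tried, none turned the direction of a log2 ratio or of a role group's deviation. With no filter on low counts 11679 genes varied beyond counting noise, since more genes were tested, and edgeR called 3 genes in replicate 2 and 3 in replicate 4. With median-of-ratios factors edgeR called 3 genes in replicate 4, and DESeq2 called 0 in replicate 3. Leaving out 1 replicate gave 0 to 240 genes and 0 to 7 members for replicate 1, 1 to 400 and 0 to 12 for replicate 2, 2 to 743 and 0 to 13 for replicate 3, and 3 to 1064 and 0 to 19 for replicate 4. TPM rescaled over genes with no opposite exon has a smaller denominator, and group medians became 116 for HSP70, 2651 for HSP90, 349 for TRiC, 393 for mitochondrial chaperones, 331 for ER folding, 62.9 for ER stress and 43507 for the opposite features, against 14.4, 347, 46.8, 53.8, 44.7, 8.13 and 5018 TPM. The ER stress median was 35.5 TPM over its genes that averaged 10 or more counts and 2.98 over those with no opposite exon, since fewer genes remain. The opposite features had a median of 3382 as FPKM, and with TMM they deviated by -0.19, 0.32, 0.20 and -0.34 in replicates 1 to 4. With no opposite exon allowed, none of these 3 features remains and no value is given. No paired comparison of conditions was possible because there is 1 group. With 4 libraries an exact sign-flip p cannot go under 0.125, and counts under 10 in some or all libraries limit Ern1, Herpud1, Atf6 and Hspa1a.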
